A study of Mus musculus with 6 samples.

Results

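The numbered zinc finger protein genes of the mouse (Zfp106, Zfp281, Zfp445 and so on) were followed in fetal hearts after the mother had inhaled nanoparticles. The set held the protein-coding genes of the GENCODE M21 annotation whose symbol is Zfp and a number from 1 to 499 and nothing else, and whose estimated reads averaged 50 or more over all 6 libraries. Of 162 genes with such a symbol, 113 met the threshold and 49 did not. All 113 were among the 13928 genes tested, out of 35411 genes in the summed table. Members were thus selected on their mean reads over both groups, which are given here as a description only: Zfp39 (50.5 reads), Zfp14 (51.3) and Zfp146 (51.9) lay just inside the threshold, and Zfp37 (49.7), Zfp189 (47.8) and Zfp112 (47.5) just outside it. Of the genes left out, 37 were still tested and are in none of the counts of members.

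Hearts came from offspring of FVB/NJ wild-type dams, 10 weeks old, that breathed either aerosolised nanoparticles of the white pigment titanium dioxide (nano-TiO2) or filtered air (sham). Exposure aimed at 12 mg/m3 and lasted 360 minutes a day. It was given on 6 days, not in a row, over a span of 8 days from gestational day 5, and hearts were collected at gestational day 15. The study of 14 dams profiled N6-methyladenosine on RNA, and the libraries described here are its 3 nano-TiO2 and 3 sham inputs, made from 3 µg of fragmented RNA with no antibody, so they measure transcript abundance. Each was made from pooled fetal hearts of both sexes, the number of litters behind a pool is not stated, and p-values therefore measure only the spread between these pools.

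A C2H2 zinc finger is a short loop of protein folded around a zinc ion that is held by a pair of cysteines and a pair of histidines. Fingers are strung together in arrays, each finger reads a few bases of DNA, and a conserved linker joins neighbouring fingers. Many of these proteins also carry a KRAB domain, which recruits Trim28 (KAP1) and through it the histone methyltransferase Setdb1, HP1 proteins and DNA methyltransferases, and in this way silences transposable elements and imprinted loci in the early embryo. Others carry a SCAN domain, through which they pair with each other, or neither domain, and act as ordinary transcription factors, RNA-binding proteins or mitotic proteins.

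The finger that defines the family is shown for 4 members with different behaviour or role: Zfp445 and Zfp281 were higher in nano-TiO2 hearts, Zfp13 was lower, and Zfp57 is the classical guardian of imprints. Each line is coding sequence of a GENCODE M21 transcript (GRCm38) 5′ to 3′, with the codons of the zinc-binding cysteines and histidines in capitals. The last bases of the Zfp445 and Zfp13 lines run on into the linker to the next finger.
Zfp445: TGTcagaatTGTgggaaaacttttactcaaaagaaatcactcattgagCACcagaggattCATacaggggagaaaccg
Zfp281: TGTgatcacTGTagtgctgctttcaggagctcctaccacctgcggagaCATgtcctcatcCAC
Zfp57: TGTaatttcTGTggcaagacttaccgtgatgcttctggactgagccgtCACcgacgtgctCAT
Zfp13: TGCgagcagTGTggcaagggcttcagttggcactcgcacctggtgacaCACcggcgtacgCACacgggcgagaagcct
In translated coding sequences, the pattern of spaced cysteines and histidines matched at least once in 111 of the 113 members, with a median of 10 and a maximum of 40 matches (Zfp142). Of the 2 without a match, Zfp36 is known to carry fingers of another type (CCCH), and the other was Zfp330. A linker was found in 81 members.

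The libraries held between 12881945 (nano-TiO2 2) and 22720009 (sham 1) estimated reads, and every member was detected in every library, with a lowest value of 19.0 reads in sham 2. All 10 cardiomyocyte markers were present in each library. RNA of other organs was uneven: hepatocyte markers, all 7 of 7 present everywhere, summed to 648.5 TPM (Salmon's abundance per length) in sham 2 and to between 3.14 and 52.1 TPM in the other libraries, and lung epithelial markers, 1 to 4 of 4 present, summed to 2612 TPM in nano-TiO2 3 and to between 0.538 and 599.9 TPM elsewhere. Erythroid markers, 11 of 11 present, took 10.2%, 5.70% and 9.46% of reads in nano-TiO2 hearts 1 to 3, against 12.5%, 23.5% and 10.6% in sham hearts 1 to 3. Endothelial markers, 4 of 4 present, took 0.0353%, 0.0397% and 0.0381% of reads in nano-TiO2 hearts 1 to 3, against 0.0276%, 0.0218% and 0.0253% in sham hearts 1 to 3. Fibroblast markers, 4 of 4 present, took 0.270%, 0.327% and 0.299% in nano-TiO2 hearts 1 to 3, against 0.264%, 0.190% and 0.239% in sham hearts 1 to 3. Thus the endothelial and fibroblast shares of reads were higher, and the erythroid share of reads lower, in every nano-TiO2 heart than in any sham heart. In summed TPM the erythroid markers overlapped, with 203800 and 188985 TPM in nano-TiO2 1 and 3, against 187393 TPM in sham 3. Single markers overlapped too: Hbb-bs had 76541 TPM in nano-TiO2 1 and 55684 TPM in sham 1. Col1a1 had 258.9 TPM in nano-TiO2 1 and 267.6 TPM in sham 1. The part of all these markers in the results below was not tested. In such bulk RNA, fewer cells of a type and less RNA per cell cannot be told apart.

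The comparison asked whether this family differed between hearts of exposed and sham-exposed offspring. More members were higher than lower in nano-TiO2 hearts: 28 of 113 (24.8%) were called higher, 6 (5.31%) lower, and 79 were not called (edgeR's quasi-likelihood test, Benjamini-Hochberg adjusted p under 0.05 over all genes). Over all 13928 genes tested, 15.5% were called higher and 12.8% lower. For the members, the median log2 fold change, nano-TiO2 over sham, came to 0.32 (quartiles -0.11 and 0.74, range -0.73 to 1.34), beside -0.01 for all genes tested. 79 members lay above 0 and 34 below. All 3 nano-TiO2 values were above all 3 sham values in 44 members, beside 23.3% of all genes, and below them in 11 members, beside 22.4% of all genes. The remaining 58 members overlapped between the groups. The split of calls moved with the scaling: with upper-quartile factors 2422 genes were called higher and 1310 lower, among them 32 and 2 members, and with library totals only, which put the median of all genes at 0.41, 4269 and 50 genes, among them 56 and 0 members. The counts also moved when single libraries were left out. Without nano-TiO2 1, 7 of the 113 members were called higher and 0 lower, beside 5.98% and 3.04% of all genes. Leaving out nano-TiO2 2 gave 25 and 9 members (15.3% and 14.6% of all genes), and nano-TiO2 3 gave 9 and 1 (7.37% and 3.89%). Leaving out sham 1 gave 14 and 1 members (10.2% and 3.93% of all genes), sham 2 gave 10 and 1 (7.46% and 2.52%), and sham 3 gave 28 and 3 (15.2% and 8.04%). The median over the members ran from 0.23 without nano-TiO2 1 to 0.60 without sham 3 in these 6 fits. No member was called with sham 2 and nano-TiO2 3 both left out. There edgeR gave 31 of the 113 members a p under 0.05 before adjustment, beside 3350 of all 14019 genes tested. The median over the members was still 0.32.

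**Figure D1:**
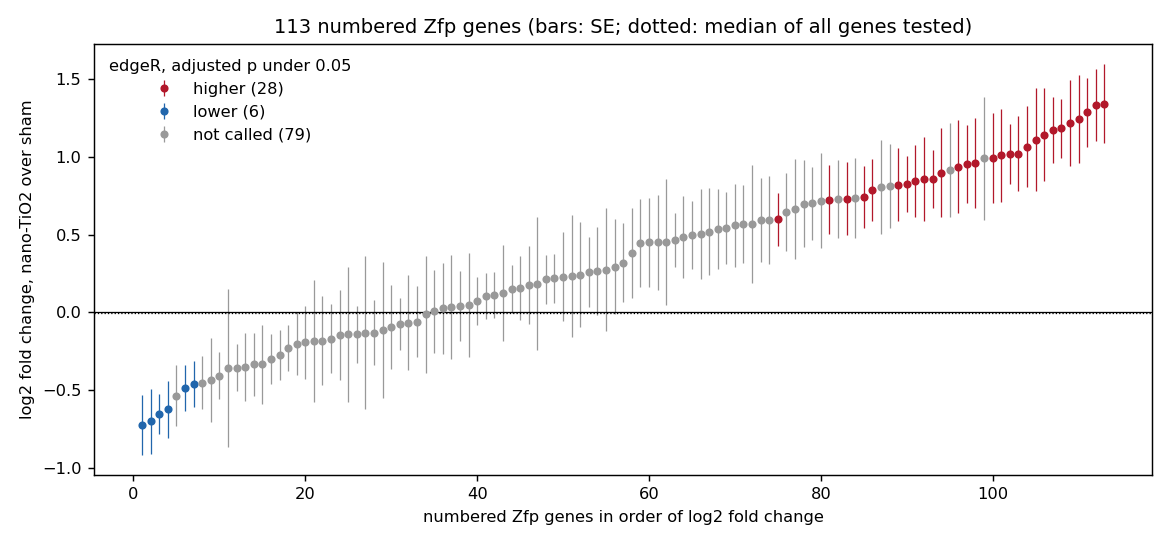
Log2 fold change, nano-TiO2 over sham, of the 113 numbered Zfp genes in order of size, with SE bars. The 28 genes called higher (red) lie between 0.60 and 1.34 and the 6 called lower (blue) between -0.73 and -0.46; the dotted line, the median of all genes tested, lies at -0.01.

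The largest rises were in genes of varied function. Zfp106, an RNA-binding protein whose loss causes neuromuscular degeneration in mice, had 103, 50.8 and 80.1 CPM in nano-TiO2 hearts 1 to 3, against 27.2, 27.7 and 37.3 CPM in sham hearts 1 to 3 (CPM, the count scaled to a common library size by TMM). Its lowest nano-TiO2 heart was above its highest sham heart (log2 fold change 1.34, SE 0.26, adjusted p = 0.0106). Zfp445, a KRAB zinc finger protein that, with Zfp57, protects imprinted methylation, had 28.6, 19.4 and 18.4 CPM in nano-TiO2 hearts 1 to 3, against 8.88, 7.18 and 10.2 CPM in sham hearts 1 to 3. The groups did not overlap (log2 fold change 1.33, SE 0.23, adjusted p = 0.00849). Zfp318, which in B cells is required for the long transcript that encodes IgD, had 17.5, 12.2 and 19.3 CPM in nano-TiO2 hearts 1 to 3, against 6.33, 7.71 and 6.11 CPM in sham hearts 1 to 3 (log2 fold change 1.29, SE 0.22, adjusted p = 0.00851). All 3 nano-TiO2 hearts were clearly above the sham hearts.

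Zfp451, a SUMO ligase, averaged 19.9 ± 1.76 CPM in nano-TiO2 hearts and 8.72 ± 1.48 CPM in sham hearts (SD, n = 3 each), with a log2 fold change of 1.18 ± 0.19 (SE) and the smallest adjusted p of the family, 0.00749. Zfp281, a transcription factor of pluripotent stem cells, averaged 16.6 ± 3.34 CPM in nano-TiO2 hearts and 7.33 ± 0.987 CPM in sham hearts (SD, n = 3 each), with a log2 fold change of 1.17 and an adjusted p of 0.00926. Both separated the groups in every pool. The other 3 of the 8 largest rises were less abundant genes: Zfp382 (1.24), Zfp12 (1.22) and Zfp11 (1.14), with adjusted p-values of 0.0166, 0.0166 and 0.0256. Zfp382 had 5.16, 3.75 and 3.93 CPM in nano-TiO2 hearts 1 to 3, against 1.61, 2.09 and 1.73 CPM in sham hearts 1 to 3, so that its 2 lowest nano-TiO2 hearts still stood above its highest sham heart.

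Leaving out each library in turn separated these genes by how firmly they were called. Zfp106, Zfp445, Zfp318, Zfp451, Zfp281 and, outside the 8 largest rises, Zfp263 kept their call in all 6 such fits. Zfp12 and Zfp382 were called in 3 of the 6 and Zfp11 in 2. With sham 2 and nano-TiO2 3 both left out, the log2 fold changes of the 8 genes ran from 1.11 (Zfp281) to 1.45 (Zfp382), and none had an adjusted p under 0.05.

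Among the other members called higher, Zfp91, an E3 ubiquitin ligase, had 35.3, 28.0 and 39.5 CPM in nano-TiO2 hearts 1 to 3, against 17.0, 21.8 and 19.4 CPM in sham hearts 1 to 3 (log2 fold change 0.82, SE 0.18, adjusted p = 0.0148). Zfp462, a chromatin protein with 33 finger matches, had 9.90, 12.7 and 9.05 CPM in nano-TiO2 hearts 1 to 3, against 7.47, 3.14 and 3.87 CPM in sham hearts 1 to 3 (log2 fold change 1.11, SE 0.33, adjusted p = 0.0377), and lost its call in 5 of the 6 fits with a library left out. Its highest sham heart was close to its lowest nano-TiO2 heart, while the other sham hearts were lower. Zfp326, whose human counterpart couples RNA polymerase II elongation to splicing, had 22.3, 17.7 and 18.7 CPM in nano-TiO2 hearts 1 to 3, against 10.8, 12.6 and 9.11 CPM in sham hearts 1 to 3 (log2 fold change 0.86, SE 0.19, adjusted p = 0.0148). Over all 28 genes called higher, log2 fold changes ran from 0.60 (Zfp180) to 1.34 (Zfp106), with a median of 0.98.

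The 6 genes called lower were Zfp13, Zfp213, Zfp428, Zfp444, Zfp414 and Zfp212. With each library left out in turn, Zfp428 was called in 5 of the 6 fits, Zfp444 in 2, and Zfp13, Zfp213, Zfp414 and Zfp212 in 1 each. Zfp428 had 33.6, 38.0 and 39.5 CPM in nano-TiO2 hearts 1 to 3, against 56.9, 56.6 and 61.5 CPM in sham hearts 1 to 3 (log2 fold change -0.65, SE 0.13, adjusted p = 0.0114). Its groups were tight and well apart. Zfp13 had 5.47, 7.56 and 6.82 CPM in nano-TiO2 hearts 1 to 3, against 11.2, 10.5 and 11.1 CPM in sham hearts 1 to 3 (log2 fold change -0.73, SE 0.19, adjusted p = 0.0267). Zfp213 had 16.2, 28.1 and 19.6 CPM in nano-TiO2 hearts 1 to 3, against 36.2, 32.8 and 34.5 CPM in sham hearts 1 to 3 (log2 fold change -0.70, SE 0.21, adjusted p = 0.0386), with nano-TiO2 2 nearest the sham hearts. Zfp444 averaged 25.7 ± 4.32 CPM in nano-TiO2 hearts and 39.6 ± 5.82 CPM in sham hearts (SD, n = 3 each), Zfp414 averaged 49.1 ± 6.86 CPM in nano-TiO2 hearts and 68.7 ± 6.85 CPM in sham hearts (SD, n = 3 each), and Zfp212 averaged 17.4 ± 1.50 CPM in nano-TiO2 hearts and 24.0 ± 1.01 CPM in sham hearts (SD, n = 3 each). Their log2 fold changes were -0.62, -0.48 and -0.46, with adjusted p-values of 0.0355, 0.0414 and 0.0483. The direction of the lower group depended on the scaling: on a log2(TPM + 1) scale, where the median of all genes was 0.47, Zfp414, Zfp428, Zfp444 and Zfp212 lay above 0 and only Zfp13 and Zfp213 below, although all 6 lay below that median by 0.28 to 0.52. Zfp414 shares 26.2% of its 31-base words with the gene model Gm20507, so its reads may be split between these.

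**Figure D2:**
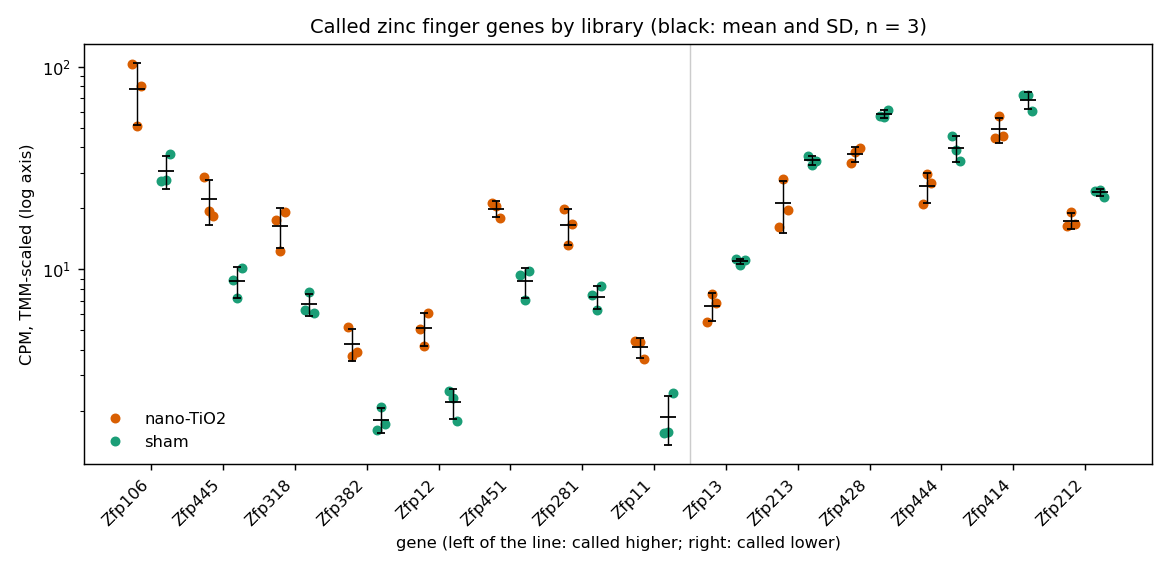
CPM after TMM scaling (log axis) in each library for the 8 largest rises and the 6 genes called lower, with nano-TiO2 hearts (orange) left of sham hearts (green) and the mean and SD in black (n = 3 each). In each of the 14 genes the 3 nano-TiO2 points lie on one side of the 3 sham points; Zfp106 spreads most among the nano-TiO2 hearts, from 50.8 to 103 CPM.

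The most abundant members were mostly not the ones that rose. Per length, Zfp414 led with 63.1 ± 20.4 TPM in nano-TiO2 hearts and 53.8 ± 9.87 TPM in sham hearts (SD, n = 3 each), followed by Zfp428 with 59.4 ± 11.8 TPM in nano-TiO2 hearts and 56.3 ± 9.18 TPM in sham hearts (SD, n = 3 each) and Zfp207 with 54.7 ± 7.66 TPM in nano-TiO2 hearts and 33.6 ± 8.96 TPM in sham hearts (SD, n = 3 each). Zfp414 and Zfp428 did not differ from each other in TPM beyond their spread. Zfp358 (25.8 TPM over all libraries), Zfp444 (24.8), Zfp395 (24.8) and Zfp422 (24.2) formed a second tier, whose levels overlapped between libraries, and the median member had a mean of 2.52 TPM. Zfp207 (BuGZ), which loads the checkpoint protein Bub3 onto kinetochores, had 124, 106 and 100.0 CPM in nano-TiO2 hearts 1 to 3, against 95.5, 84.8 and 117 CPM in sham hearts 1 to 3 (log2 fold change 0.15, SE 0.15, adjusted p = 0.485), and its groups overlapped. Zfp395 had 44.4, 49.4 and 53.6 CPM in nano-TiO2 hearts 1 to 3, against 69.2, 72.3 and 54.4 CPM in sham hearts 1 to 3 (log2 fold change -0.41, SE 0.15, adjusted p = 0.0741). Zfp358 averaged 37.6 ± 2.00 CPM in nano-TiO2 hearts and 51.5 ± 10.1 CPM in sham hearts (SD, n = 3 each), with an adjusted p of 0.0770, and Zfp422 averaged 57.4 ± 4.89 CPM in nano-TiO2 hearts and 53.3 ± 7.24 CPM in sham hearts (SD, n = 3 each), with an adjusted p of 0.616. Of these 8 most abundant genes by CPM, Zfp106 was called higher, Zfp414 and Zfp428 lower, and Zfp148 and the other 4 were not called.

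Several members with known roles in development or the heart were not called. Zfp57, the KRAB protein that binds methylated imprinting control regions, had 17.2, 20.6 and 12.7 CPM in nano-TiO2 hearts 1 to 3, against 13.6, 11.7 and 9.26 CPM in sham hearts 1 to 3, with a log2 fold change of 0.54 ± 0.23 (SE) and an adjusted p of 0.112. Its nano-TiO2 3 heart lay below sham 1. Zfp260, which in rat heart muscle cells works with Gata4, had 40.1, 24.3 and 23.6 CPM in nano-TiO2 hearts 1 to 3, against 19.5, 21.8 and 39.3 CPM in sham hearts 1 to 3 (log2 fold change 0.13, adjusted p = 0.789). Here nano-TiO2 1 and sham 3 were both high and the other 4 hearts low. Zfp148 (ZBP-89), which binds GC-rich promoter elements, had 64.4, 31.8 and 43.6 CPM in nano-TiO2 hearts 1 to 3, against 22.6, 26.2 and 37.2 CPM in sham hearts 1 to 3 (log2 fold change 0.70, adjusted p = 0.0927), with sham 3 above nano-TiO2 2.

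Zfp36 (tristetraprolin), which binds AU-rich elements and speeds decay of messenger RNAs, averaged 28.6 ± 3.62 CPM in nano-TiO2 hearts and 36.5 ± 2.41 CPM in sham hearts (SD, n = 3 each), with a log2 fold change of -0.36 and an adjusted p of 0.109. All 3 nano-TiO2 hearts were below the sham hearts, but the test did not pass. Zfp423, a partner of SMAD and EBF factors in brain and fat development, averaged 5.21 ± 2.25 CPM in nano-TiO2 hearts and 5.25 ± 1.82 CPM in sham hearts (SD, n = 3 each), with an adjusted p of 0.984. Zfp335, a subunit of a histone methyltransferase complex, had a log2 fold change of -0.33 (adjusted p = 0.246), Zfp217, the mouse counterpart of a human breast cancer oncogene, of 0.56 (adjusted p = 0.148), Zfp292 of 0.45 (adjusted p = 0.262) and Zfp41 of -0.17 (adjusted p = 0.606). Zfp384 and Zfp42, looked for as well, were not members: Zfp384 had a mean of 33.5 reads and Zfp42 (Rex1), a marker of pluripotent cells, of 4.23 reads.

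Calls were made among genes with a KRAB match and among those without one. Of 41 members whose protein matched the KRAB pattern, 11 were called higher and 1 lower (Zfp13), with a median log2 fold change of 0.45, and of the other 72, 17 were called higher and 5 lower, with a median of 0.22. The shares called higher were 26.8% and 23.6%, beside 20.2% and 22.8% of the non-Zfp genes matched to each class on length and 15.5% of all genes. Those called lower were 2.44% and 6.94%, beside 6.78% and 6.44% of the matched genes and 12.8% of all genes. After the trend over length and GC described below was removed, these medians were -0.01 and 0.01. The pattern is short and misses known cases, among them Zfp57, which carries a divergent KRAB domain, so the split follows the letters and not the domain. Splitting by the number of finger matches gave 9 higher and 5 lower among the 38 members with the fewest, 8 and 1 among the 37 in the middle, and 11 and 0 among the 38 with the most, with medians of 0.39, 0.47 and 0.26. The shares called higher were 23.7%, 21.6% and 28.9%, beside 19.3%, 20.3% and 25.7% of the non-Zfp genes matched to each class on length. Those called lower were 13.2%, 2.70% and 0%, beside 7.79%, 6.35% and 5.53%.

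The 8 members with a match to the SCAN pattern all had a log2 fold change above 0. Zfp445, Zfp397, Zfp24, Zfp110 and Zfp369 were called higher, while Zfp202 (0.72, adjusted p = 0.112), Zfp449 (0.45, adjusted p = 0.430) and Zfp446 (0.26, adjusted p = 0.419) were not. Their median was 0.74, beside 0.27 for the 105 members without a match and 0.27 for 143 non-Zfp genes matched to them on length, of which 20.3% were called higher. With the trend over length and GC removed, the SCAN median was 0.23, beside -0.02 for the other 105. Zfp24, needed for myelination in mice, averaged 29.2 ± 8.70 CPM in nano-TiO2 hearts and 16.2 ± 2.31 CPM in sham hearts (SD, n = 3 each). Zfp110 and Zfp369, known as binding partners of the p75 neurotrophin receptor, had log2 fold changes of 0.74 and 0.73. The human counterparts of Zfp213 and Zfp444, both of which were called lower, and of Zfp263, called higher, carry SCAN domains too, and none of these mouse proteins matched the letters.

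Transcript length and base composition went along with the fold change across members. Members were longer than the tested genes at large (median read-weighted length 3499 and 2723 bases) and poorer in GC (46.5% and 50.6%). In the shortest 38 members, 4 were called higher and 6 lower, with a median log2 fold change of -0.07. The middle 37 had 9 and 0, with 0.38, and the longest 38 had 15 and 0, with 0.67. The shares called higher were 10.5%, 24.3% and 39.5%, beside 6.22%, 16.6% and 42.2% of the non-Zfp genes matched to each class on length. Those called lower were 15.8%, 0% and 0%, beside 12.6%, 4.99% and 1.78%. Over all genes tested, 15.5% were called higher and 12.8% lower. Across the 113 members, Pearson's r of log2 fold change was 0.43 with log2 length and -0.46 with GC content, given as a description because all members share the same libraries. Over GC the order was not even. In the 38 members with the least GC, 8 were called higher and 0 lower, with a median of 0.34. The middle 37 had 15 and 0, with 0.73, and the 38 with the most had 5 and 6, with -0.15. The shares called higher were 21.1%, 40.5% and 13.2%, beside 23.9%, 20.4% and 21.2% of the non-Zfp genes matched to each class on length. Those called lower were 0%, 0% and 15.8%, beside 5.44%, 6.57% and 7.47%. These genes were matched on length and not on GC, which sets the classes. With the trend over length and GC described below removed, the medians of these GC classes were -0.19, 0.19 and 0.0022. The 28 genes called higher had a GC content of 40.2% to 51.9%, and the 6 called lower of 54.7% to 64.4%. Of the 27 members with more GC than any gene called higher, 6 were called lower and 4 lay above 0. This limit was taken from the calls themselves, so by its choice no gene called higher could be among the 27. Of non-Zfp genes matched to these 27, 54.0% lay above 0 when matched on length and 21.9% when matched on length and GC.

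Non-Zfp genes matched to the members had similar shares of calls. Each member was set beside its 20 nearest protein-coding non-Zfp genes by length, 2014 genes in all, of which 21.4% were called higher and 6.70% lower, with a median log2 fold change of 0.19. Matched on length and GC (1992 genes), 23.8% were called higher and 4.92% lower, with a median of 0.31, beside 24.8%, 5.31% and 0.32 for the members. 57 of the 113 members lay above the median of their own length-matched genes, and 55 above that of their length-and-GC-matched genes. In the same 3 classes of length, the matched genes had medians of -0.10, 0.18 and 0.67, beside -0.07, 0.38 and 0.67 in the members. Matched genes are shown as a description, with no test.

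**Figure D3:**
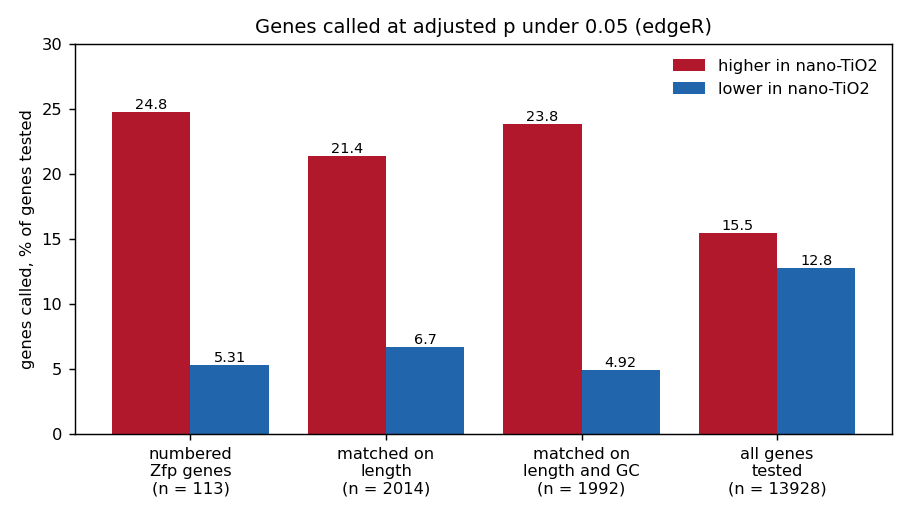
Percent of genes called higher (red) or lower (blue) in nano-TiO2 hearts (edgeR, adjusted p under 0.05) among the 113 numbered Zfp genes, non-Zfp genes matched on length, non-Zfp genes matched on length and GC, and all genes tested. The members (24.8% and 5.31%) stand close to the genes matched on length and GC (23.8% and 4.92%) and apart from all genes (15.5% and 12.8%).

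When each library's smooth trend over length and GC was removed before the test, edgeR called no member in either direction (0 of 113). Over all genes it called 0.395% higher and 1.18% lower. Before adjustment, edgeR gave 19 of 113 members a p under 0.05, 9 higher and 10 lower, beside 2830 of all 13928 genes. 57 members then lay above 0, and their median was 0.01. The log2 fold change of Zfp445 became 0.47 (adjusted p = 0.147), of Zfp281 0.42 (adjusted p = 0.163), of Zfp106 0.35 (adjusted p = 0.433), of Zfp318 0.19 (adjusted p = 0.653) and of Zfp451 0.19 (adjusted p = 0.589). The largest that remained belonged to 2 of the shorter members: Zfp382 at 1.12 (adjusted p = 0.0655) and Zfp69 at 1.04 (adjusted p = 0.0559). Among the 6 genes called lower, Zfp213 had -0.39 and Zfp414 0.15. What the trend follows from was not tested.

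**Figure D4:**
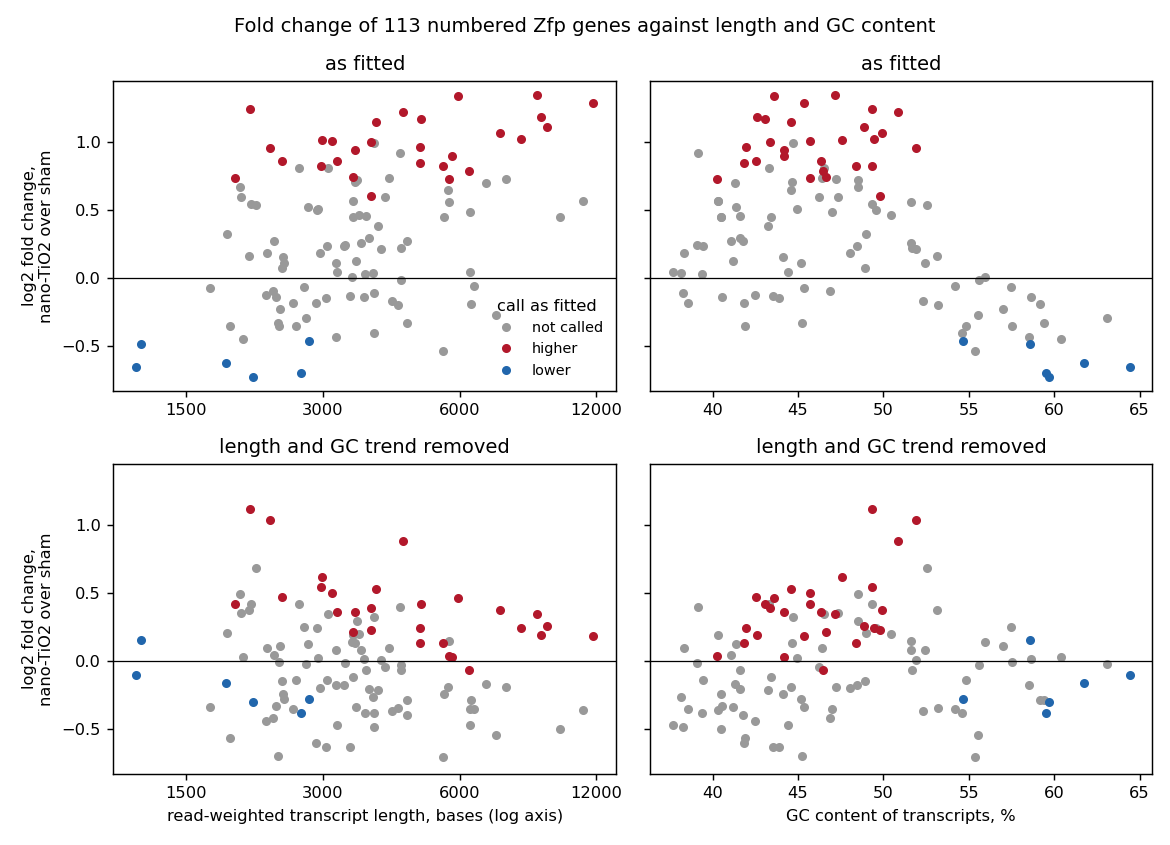
Log2 fold change, nano-TiO2 over sham, of the 113 members against read-weighted transcript length (left, log axis) and GC content (right), as fitted (top) and with each library's trend over both removed (bottom); colours show the call as fitted. In the top panels the red points lie at lengths from 1915 bases and at GC contents up to 51.9% and the blue points at 54.7% GC and above; in the bottom panels the members spread around 0 at all lengths.

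A separate table of the whole series, which holds reads in steps along each gene, was tested in the same way; it comes from the same libraries. It called 33 members higher and 2 lower (Zfp428 and Zfp13), beside 15.4% and 11.2% of its 18850 genes, with a median log2 fold change of 0.41. All 28 members called higher from the Salmon estimates were called higher here, and 112 of 113 log2 fold changes were within 0.25 of each other. With the trend over length and GC removed, 2 members were called higher (Zfp69 and Zfp382) and 1 lower (Zfp248), beside 0.912% and 1.82% of genes. The exception was Zfp248, singled out after its values were seen, with a log2 fold change of 0.45 from the Salmon estimates and -0.12 from the table.

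The reads of Zfp248 in that table were concentrated in one place. Of its 1747 reads, 1547 (88.6%) lay in a single bin, beside at most 5.39% in any other member. That bin held 224, 155 and 330 reads in nano-TiO2 hearts 1 to 3, against 302, 215 and 321 reads in sham hearts 1 to 3. All other bins together held 45, 36 and 52 reads in nano-TiO2 hearts 1 to 3, against 32, 7 and 28 reads in sham hearts 1 to 3. The other bins thus were higher in every nano-TiO2 heart than in any sham heart in raw reads, while the single bin was not.

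**Figure D5:**
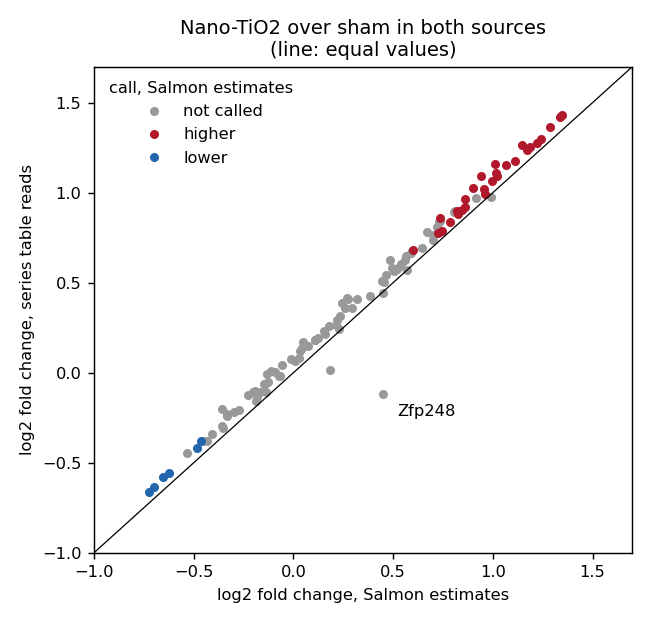
Log2 fold change, nano-TiO2 over sham, of each of the 113 members from Salmon estimates (x axis) and from the series table of reads (y axis), coloured by the call from the Salmon estimates; the line marks equal values. The points follow the line, with table values higher by a median of 0.07, except for Zfp248 at 0.45 and -0.12.

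The proteins that KRAB zinc finger proteins recruit were looked at as a list of 23 genes, all tested. 5 (21.7%) were called higher and 1 (4.35%) lower, beside 15.5% and 12.8% of all genes tested, with a median log2 fold change of 0.30. Cbx5 (HP1 alpha), which binds methylated histone H3, had 162, 143 and 122 CPM in nano-TiO2 hearts 1 to 3, against 72.3, 64.9 and 60.6 CPM in sham hearts 1 to 3, and its log2 fold change was 1.11 (SE 0.14, adjusted p = 0.00630). Atf7ip, which stabilises Setdb1, stood at 0.83 (SE 0.14, adjusted p = 0.00847) on the log2 scale, the HUSH complex subunit Pphln1 at 0.87 (SE 0.18, adjusted p = 0.0118), and Cbx1 (HP1 beta) at 0.63 (SE 0.13, adjusted p = 0.0130). Hdac2, a histone deacetylase, was the fifth gene called higher, at 0.81 (SE 0.25, adjusted p = 0.0404), with nano-TiO2 2 below sham 2. Sumo2, the small modifier, was lower, at -0.47 (SE 0.14, adjusted p = 0.0424). Trim28, the partner that binds KRAB itself, averaged 142 ± 33.8 CPM in nano-TiO2 hearts and 203 ± 58.6 CPM in sham hearts (SD, n = 3 each), and was not called, at -0.51 (SE 0.25, adjusted p = 0.149), nor was Setdb1, at 0.23 (SE 0.17, adjusted p = 0.324). With the trend over length and GC removed, none of the 23 genes was called by edgeR, and Cbx5 had a log2 fold change of 0.13.

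Related families were counted with the same calls, but over all their tested genes, without the minimum of mean reads set for the members. Their shares are therefore not directly comparable with those of the members. Of 192 tested Zfp genes with a letter suffix or a number of 500 or more, 21 (10.9%) were called higher and 5 (2.60%) lower, beside 15.5% and 12.8% of all genes tested, with a median of 0.21. Of 40 Zbtb genes, 11 were higher and 2 lower (median 0.37), of 10 Zkscan genes, 5 and 0 (median 0.60), and of 9 Zscan genes, 1 and 0 (median 0.12).

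Many numbered Zfp genes lie in clusters of neighbours that arose by duplication, and 26 of the members are on chromosome 7. There, 8 were called higher and 2 lower (Zfp428 and Zfp444), beside 24.8% and 5.31% of all members and 15.5% and 12.8% of all genes, with a median log2 fold change of 0.56. On chromosome 17, which holds 12 members, Zfp318 was called higher and Zfp13, Zfp213 and Zfp414 lower, with a median of -0.03. Near-identical copies make some members uncertain: 13 shared over 10% of their 31-base words with another gene, led by Zfp433 (96.7%), Zfp59 (65.1%) and Zfp58 (52.7%), and of these 13 only Zfp414, Zfp369 and Zfp235 were called.

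Promoters of the members were read from RefSeq (GRCm38.p6; 250 bases before and 50 after the start), which matched 90 of the 113 members with 106 promoters. They are shown for a gene called higher (Zfp180) and 2 called lower (Zfp213 and Zfp428), chosen because each holds one of the motifs searched, in capitals.
Zfp180, chr7:24081647-24081946, plus strand: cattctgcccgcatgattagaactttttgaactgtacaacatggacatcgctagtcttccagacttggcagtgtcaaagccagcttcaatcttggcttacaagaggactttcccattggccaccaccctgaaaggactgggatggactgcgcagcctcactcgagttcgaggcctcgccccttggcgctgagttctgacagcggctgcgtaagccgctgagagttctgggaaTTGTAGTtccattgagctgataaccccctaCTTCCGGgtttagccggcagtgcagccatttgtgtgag
Zfp213, chr17:23564177-23564476, minus strand: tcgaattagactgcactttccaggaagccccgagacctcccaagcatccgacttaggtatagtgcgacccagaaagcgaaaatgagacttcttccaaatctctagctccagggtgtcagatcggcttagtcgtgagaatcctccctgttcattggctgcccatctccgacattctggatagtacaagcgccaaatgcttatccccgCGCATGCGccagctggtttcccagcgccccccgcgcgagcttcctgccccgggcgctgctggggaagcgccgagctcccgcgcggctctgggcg
Zfp428, chr7:24506837-24507136, plus strand: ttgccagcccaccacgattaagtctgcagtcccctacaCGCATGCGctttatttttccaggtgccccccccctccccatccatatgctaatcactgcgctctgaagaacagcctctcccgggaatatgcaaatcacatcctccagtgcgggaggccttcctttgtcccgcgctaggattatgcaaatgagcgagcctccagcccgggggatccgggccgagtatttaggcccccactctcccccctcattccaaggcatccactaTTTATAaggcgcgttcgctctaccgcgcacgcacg
In Zfp180 the capitals mark a match to the core of the ZNF143 motif and one to the ETS motif, in Zfp213 overlapping matches on both strands to the core of the NRF1 motif, and in Zfp428 the same NRF1 core and a TATA motif. Letters were read on both strands. The ETS letters CCGGAAG were found in 27.4% of the members' promoters, beside 8.86% of all 32851 promoters and 16.3% of the promoters of tested genes. The ZNF143 core ACTACAA was found in 8.49%, beside 3.24% and 3.90%, and the NRF1 core GCATGCG in 9.43%, beside 3.58% and 6.01%. The YY1 core AAGATGG was found in 12.3%, beside 6.34% and 6.56%, and the TATA letters TATAAA in 7.55%, beside 13.6% and 7.32%. By call, ETS letters stood in 8 of the 24 promoters of genes called higher, 1 of the 6 of genes called lower and 20 of the 76 of members not called. In the same order, TATAAA stood in 0, 2 and 6, and the NRF1 core in 2, 2 and 6. The YY1 core stood in 1, 0 and 12, and the ZNF143 core in 3, 0 and 6. Zfp143 itself, the mouse ZNF143, is a member and had a log2 fold change of 0.51 (adjusted p = 0.219). These shares describe the windows, and no difference between the calls was tested.

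As a whole the family took a larger share of reads in exposed hearts. The members held 0.202%, 0.204% and 0.183% of reads in nano-TiO2 hearts 1 to 3, against 0.136%, 0.113% and 0.141% in sham hearts 1 to 3, so the groups did not overlap. Many other genes also gained share on this scale. With library totals only, the median log2 fold change was 0.41 over all genes and 0.73 over the members, and edgeR called 30.7% of all genes higher. After TMM scaling, the summed CPM of the members was 1851, 1635 and 1617 in nano-TiO2 hearts, against 1449, 1440 and 1614 in sham hearts, and sham 3 came within a few CPM of nano-TiO2 3. The share of the members' reads that fell in protein-coding transcripts was 93.0%, 93.4% and 93.2% in nano-TiO2 hearts, against 94.1%, 95.1% and 95.1% in sham hearts. The share of a member's reads in bins nearer its 3′ end than its 5′ end had a median of 59.3%, 58.8% and 64.7% in nano-TiO2 hearts, against 57.5%, 64.3% and 55.5% in sham hearts, so that nano-TiO2 3 and sham 2 were the most weighted to the 3′ end. The part of these shares in the fold changes was not tested.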

How the data were processed

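Per the file headers, the deposited files of each library are Salmon output: an estimated count of reads for every transcript, not scaled, and a TPM value derived from it and the effective length. The series table holds a signal per bin, reads that the authors had divided by 1 size factor per library, since 100% of the values are whole multiples of the step within 0.001. The build GRCm39 and the tools Salmon 1.5.2, HISAT2 2.2.1 and DESeq2 1.34.0 are named, without roles, in the submitters' processing notes. Of 116747 transcripts, 115636 matched GENCODE M21 (GRCm38) by ID, so no coordinates are taken from the files.

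Estimated reads were summed per gene, rounded and tested with edgeR 4.0.16 (robust quasi-likelihood, TMM scaling, filterByExpr, group as the only term; R 4.3.3), with Benjamini-Hochberg adjustment over all genes and a threshold of 0.05. The trend over length and GC was fitted per library with mgcv 1.9.3. Matched genes are the 20 nearest protein-coding non-Zfp genes by log2 length. Protein features (C2H2 finger, TGEKP linker, KRAB and SCAN patterns) were counted in translated GENCODE M21 coding sequences, in place of RefSeq proteins as first planned. The tests were also run on simulated counts. These held no trend over length or GC and no uneven RNA of other organs, so that run does not bear on either.

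Members and lists were chosen with earlier results of these data known. Named by rule were the 8 highest in CPM, the 8 largest rises and up to 8 largest falls among called members with at least 2 CPM and groups that did not overlap, members with known roles, those at the threshold, and leading genes of the corepressor list; other names were chosen after their values were seen. Alternatives covered scaling, filters, tools (DESeq2 1.42.0, limma 3.58.1), matching and libraries left out. Added after seeing the data were the trend removal on the series table and matching on length, GC and reads.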

Additional observations from a re-analysis of the deposited data

How the results depend on the processing

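RLE factors, DESeq2, limma-voom, no filter, the stricter filter and protein-coding genes only kept every count within 1.5 times and every median within the spread between replicates. With upper-quartile factors and with series table reads, 2 members were called lower in each. Scaled by library totals only, 4269 genes were called higher and 50 lower, 56 and 0 members, 15 corepressor genes and 76 other zinc finger genes, and the members' median was 0.73, beside 0.41 for all genes. On log2(TPM + 1), 4531 genes were called higher and 16 lower, 59 and 0 members, 16 corepressor genes and 75 other zinc finger genes, with a median of 0.70, beside 0.47 for all genes. On log2(TPM + 0.1), 4488 genes were called higher and 15 lower, 60 and 0 members, 16 corepressor genes and 76 other zinc finger genes, with a median of 0.93, beside 0.56 for all genes. With the trend over length and GC removed, 55 genes were called higher and 164 lower, 0 and 0 members, 0 corepressor genes and 0 other zinc finger genes, and the median was 0.0099; with it removed from series table reads, 153 genes were called higher and 305 lower, 2 and 1 members, 0 corepressor genes and 6 other zinc finger genes, and the median was 0.0032. The members' median minus that of matched genes was 0.14 matched on length, 0.01 on length and GC, and -0.060 on length, GC and reads. Of the 46 members with a mean of at least 200 reads, 12 were called higher and 5 lower, beside 15.5% and 12.8% of all genes tested. The median of these 46 was 0.12, beside 0.32 for all members. Apart from the trend removal, whose construction takes out length and GC, the cause was not tested.

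With the replicate number as a block (replicate block), 1262 genes were called higher and 796 lower, 11 and 1 members and 20 other zinc finger genes. Deviations of same-numbered libraries from their group means had r of -0.39, 0.02 and -0.08, beside -0.42 to 0.48 for libraries of unlike number. With 3 libraries per group, these values cannot decide whether a shared number marks a shared batch or litter. Leaving out each library in turn gave 864 to 2190 genes called higher and 366 to 2083 lower, 7 to 28 and 0 to 9 members, 3 to 10 corepressor and 17 to 44 other zinc finger genes, a median of 0.23 to 0.60 and a difference from length-matched genes of 0.049 to 0.37. With sham 2 and nano-TiO2 3 both left out, 0 genes were called higher and 0 lower, 0 and 0 members, 0 corepressor genes and 0 other zinc finger genes, by edgeR, although 3350 genes had an unadjusted p under 0.05.

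Some signs of single genes turned. With library totals only these were Zfp395 0.014, Zfp36 0.070, Zfp423 0.42, Zfp335 0.10, Zfp41 0.26. On log2(TPM + 1) they were Zfp414 0.20, Zfp395 0.32, Zfp428 0.070, Zfp358 0.25, Zfp444 0.11, Zfp212 0.17, Zfp36 0.30, Zfp423 0.35, Zfp335 0.26, Zfp41 0.19. On log2(TPM + 0.1) they were Zfp414 0.20, Zfp395 0.34, Zfp428 0.071, Zfp358 0.26, Zfp444 0.11, Zfp212 0.19, Zfp36 0.31, Zfp423 0.58, Zfp335 0.32, Zfp41 0.23. With the trend removed they were Zfp207 -0.24, Zfp414 0.15, Zfp422 -0.28, Zfp358 0.030, Zfp148 -0.17, Zfp260 -0.34, Zfp292 -0.50, and from series table reads Zfp207 -0.20, Zfp414 0.13, Zfp422 -0.24, Zfp358 0.0071, Zfp148 -0.18, Zfp260 -0.33, Zfp292 -0.50. Zfp423 also turned with upper-quartile factors (0.045), series table reads (0.079) and both libraries left out (0.12). With single libraries left out, Zfp423 ran from -0.40 to 0.32 and Zfp260 from -0.17 to 0.54. Counting depth limits the precision of members with few reads, whose lowest value in a library was 19.0 reads.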
